A study of Mus musculus with 4 samples.

Results

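The 9 genes described here encode transcription factors that set or mark the identity of lymphocytes: Tbx21 (T-bet), Eomes, Gata3, Foxp3, Tcf7 (TCF-1), Tox, Irf4, Batf and Ikzf2 (Helios). They were chosen as a list of symbols, with earlier results of these data known, and all 9 were found once among the 31053 mouse genes of the count matrices. Their transcripts were counted by droplet single-cell RNA sequencing of 4 mammary tumours, each grown for 14 days in a different FVB/NJ host aged 6 to 8 weeks after injection of H605 cells, a HER2-positive mouse mammary tumour line, into the mammary pad. There were 2 wild-type (WT) hosts and 2 hosts lacking Il1a, the gene of interleukin 1 alpha. The knockout was of the host: the same H605 cells went into both genotypes, so any Il1a of the tumour cells was not removed, and every lineage of the host lacked the gene, lymphocytes included. Below, a WT or an Il1a-/- tumour means a tumour of that host, and values are given in the order replicate 1, replicate 2.

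T-bet and Eomes are related T-box factors that drive interferon gamma production and cytotoxic function in natural killer (NK) cells, CD8 T cells and type 1 helper cells. Gata3 directs type 2 helper cells, which make interleukins 4, 5 and 13, and Foxp3 defines regulatory T cells, many of which also carry Helios. TCF-1 keeps T cells in a naive, memory or stem-like state, while Tox accompanies chronic antigen stimulation and checkpoint receptor expression. Irf4 is induced by antigen receptor signalling and binds DNA together with Batf, an AP-1 family protein, in activated T cells.

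Across all cells kept, Il1a had 65 and 108 unique transcript counts (UMIs) in the WT tumours and 1 and 0 in the Il1a-/- tumours, as labelled, though the sources used here do not give the deleted part of the gene. The libraries held 23464120 and 29001333 UMIs (WT) and 6705368 and 15298532 UMIs (Il1a-/-), so depth was lower in both Il1a-/- libraries and lowest in replicate 1. Between 3130 and 3867 cells were kept per tumour, of which 2265 and 2359 (WT) and 2473 and 2367 (Il1a-/-) lay in clusters with T and NK cell markers, called T/NK-like. Any pair of libraries shared 0 to 5 cell barcodes, against 1.48 to 2.20 expected from random pairing. T/NK-like cells were sorted into types by UMIs of other genes (CD3 chains, co-receptors, Trdc, cytokines, NK and ILC1 genes), and none of the 9 factors was used for that or for the clustering. CD8 T cells had CD3 and Cd8a or Cd8b1 UMIs and no Cd4 or Trdc; CD4 T cells had CD3 and Cd4 UMIs and no Cd8a, Cd8b1, Trdc or type 2 cytokine UMIs, and were split by UMIs of both Il2ra and Ctla4; NK cells had Ncr1 or Klrb1c UMIs and no CD3, Trdc, Cd4 or Cd8b1. Levels below are UMIs of a gene per 1000000 mouse UMIs (CPM) of the summed cells of a type in a tumour. Gene positions are those of GENCODE vM21 on GRCm38. Gene models on either strand overlap those of Eomes (1), Gata3 (3), Foxp3 (4), Tcf7 (2), Tox (1) and Ikzf2 (3), and whether counting used strand is not given in the sources used here. Fold changes are log2 values from edgeR's quasi-likelihood test. Their standard error (SE) was taken as the absolute fold change over the square root of that test's F statistic. Genotypes were compared on 2 tumours against 2, and types within the 4 tumours. The p-values measure the spread between these tumours alone. A gene was called at a Benjamini-Hochberg adjusted p under 0.05 over all genes tested. In sums over cells, fewer cells with a transcript and less of it per cell cannot be told apart.

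RefSeq start sites (assembly GRCm38.p6) were given for 7 of the 9 genes; none was given for Tox and Ikzf2. The windows from 250 bases before to 50 bases after the start are shown for Irf4 and Batf, which were called together in the Il1a-/- T/NK-like cells, and for Eomes, which was called in the other direction. Capitals mark matches to the motifs searched on both strands.
Irf4: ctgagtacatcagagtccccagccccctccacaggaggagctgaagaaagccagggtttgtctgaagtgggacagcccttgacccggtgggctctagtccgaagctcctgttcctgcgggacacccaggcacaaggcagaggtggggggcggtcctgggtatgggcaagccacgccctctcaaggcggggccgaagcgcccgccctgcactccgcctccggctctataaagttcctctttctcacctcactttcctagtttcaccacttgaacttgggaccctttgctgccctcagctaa
Batf: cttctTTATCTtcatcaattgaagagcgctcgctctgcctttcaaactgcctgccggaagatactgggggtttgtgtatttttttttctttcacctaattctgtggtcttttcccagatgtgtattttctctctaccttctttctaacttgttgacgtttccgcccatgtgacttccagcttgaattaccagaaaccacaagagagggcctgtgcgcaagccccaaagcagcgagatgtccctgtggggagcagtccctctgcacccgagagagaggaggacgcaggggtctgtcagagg
Eomes: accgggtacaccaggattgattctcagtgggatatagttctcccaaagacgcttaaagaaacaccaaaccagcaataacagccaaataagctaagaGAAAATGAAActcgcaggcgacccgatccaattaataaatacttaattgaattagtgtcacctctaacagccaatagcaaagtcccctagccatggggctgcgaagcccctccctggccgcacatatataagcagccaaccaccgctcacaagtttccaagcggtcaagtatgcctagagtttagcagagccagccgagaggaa
The Irf4 window is chr13:30748983-30749282, the Batf window chr12:85686470-85686769 and the Eomes window chr9:118477939-118478238, all on the plus strand. The Eomes window held GAAAATGAAA, a match to the IRF motif searched (GAAA, then any 2 bases, then GAAA), which 3.443% of 32851 mouse promoter windows of this length held. The Batf window held TTATCT, the reverse complement of the GATA motif AGATAA, which 11.18% of windows held. The Irf4 window held no match to these 2 motifs, to the AP-1 motif TGANTCA (7.808% of windows), to the T-box motif AGGTGTGA (1.275%) or to the TCF motif CTTTGAA (5.135%). A match describes these letters only, and binding was not measured here.

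Eomes and Tbx21 were each highest in NK-lineage cells in all 4 tumours. Tbx21 (chromosome 11, bases 97098071 to 97115331, minus strand) stood at 111 and 143 CPM (WT) and 148 and 125 CPM (Il1a-/-) in NK cells without ILC1 genes, and at 13.6 to 75.2 CPM over the 4 tumours in T cells with Il4, Il5 or Il13 UMIs, called type 2 cytokine T cells. Eomes (chromosome 9, bases 118478212 to 118486132, plus strand) stood at 532 and 438 CPM (WT) and 357 and 350 CPM (Il1a-/-) in the same NK cells. In cells with CD3 and Trdc UMIs, the gamma-delta gate, Eomes was at 231 and 300 CPM (WT) and 147 and 129 CPM (Il1a-/-). In CD8 T cells it was at 133 and 111 CPM (WT) and 73.5 and 31.4 CPM (Il1a-/-). No Eomes UMI was seen in CD4 T cells with Il2ra and Ctla4, whose 4 sums held 24174 to 654586 UMIs (3 UMIs, the limit that a count of 0 allows, would be 124 and 4.58 CPM there), and other CD4 T cells had 3.65 to 29.97 CPM. Among these gated types, the order of Eomes was thus NK cells, then the gamma-delta gate, CD8 T cells and CD4 T cells. The ranges of NK cells with and without ILC1 genes overlapped. So did those of ILC1-gene cells and the gamma-delta gate, and of the gamma-delta gate and CD8 T cells. T/NK-like cells that met no gate made up 19.1% and 18.5% (WT) and 20.4% and 12.3% (Il1a-/-) of T/NK-like cells. They held 1914 Eomes UMIs, at a mean of 418 CPM (WT) and 207 CPM (Il1a-/-), and have no place in this order. Within tumours, Eomes was higher in CD8 T than in other CD4 T cells (log2 fold change 2.70, SE 0.25, adjusted p = 1.42e-05), as in all 4 tumours. It was also higher in the gamma-delta gate than in CD8 T cells (1.33, SE 0.20, adjusted p = 0.00169), again in all 4.

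Part of the gamma-delta gate carried NK genes. Of its cells, 52.7% and 61.4% (WT) and 29.5% and 38.9% (Il1a-/-) had an Ncr1 or Klrb1c UMI, and its summed Ncr1 level was 391 and 392 CPM (WT) against 285 and 181 CPM (Il1a-/-). The T cell receptor alpha gene Trac stood at 37.8 to 51.3 CPM in the gate, against 489 to 544 CPM in CD8 T cells. In the WT tumours 98 and 162 gate cells lay in a cluster led by Xcl1, Ncr1, Klrb1f and Eomes itself, where 2 and 0 of the Il1a-/- gate cells lay. The genotype changes of Eomes, Ikzf2 and Tcf7 in the gate are given with and without the cells bearing NK genes.

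Gata3 (chromosome 2, bases 9857078 to 9890034, minus strand) was highest in type 2 cytokine T cells, at 794 and 605 CPM (WT) and 752 and 546 CPM (Il1a-/-). All 4 values lay above every value of every other lymphocyte type. Other CD4 T cells followed at 254 and 232 CPM (WT) and 127 and 177 CPM (Il1a-/-), and their range overlapped that of CD4 T cells with Il2ra and Ctla4. CD8 T cells, at 66.3 to 109.7 CPM, and NK cells without ILC1 genes, at 82.3 to 97.5 CPM, also overlapped. The difference between type 2 cytokine and other CD4 T cells was 1.68 on the log2 scale (SE 0.14, adjusted p = 5.76e-08), higher in 4 of 4 tumours. Among 7 factors tested between these types 6 were called, against 15.1% of all genes (8.36% higher, 6.73% lower): Gata3 and Batf (0.88, SE 0.22, adjusted p = 0.00931) were higher in the type 2 cytokine cells, and Ikzf2 (-3.41, SE 0.20), Tcf7 (-2.85, SE 0.24), Tbx21 (-0.88, SE 0.28, adjusted p = 0.0409) and Tox (-0.75, SE 0.22, adjusted p = 0.0256) were lower. The calls of Tbx21 and Tox each ended without WT replicate 1 (adjusted p = 0.11 and 0.056), without WT replicate 2 (0.22 and 0.11) and without Il1a-/- replicate 2 (0.24 and 0.11), and that of Batf without WT replicate 1 (0.11). DESeq2 did not call Tbx21 (adjusted p = 0.28) or Tox (0.15), and Batf was not called with gates at 2 UMIs (0.13). Of 8 tested genes paired with Gata3 in type 2 cells, 7 were higher and none lower, with a median of 2.07 against -0.01 over all genes. These included Calca, which encodes the peptide CGRP (3.81, SE 0.36), Il1rl1, the receptor of interleukin 33 (2.42, SE 0.24), Il10, and Areg, a ligand of the EGF receptor (2.72, SE 0.35).

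Foxp3 (chromosome X, bases 7573644 to 7595245, plus strand) was highest in CD4 T cells with Il2ra and Ctla4, genes of activated and regulatory T cells, at 239 and 298 CPM (WT) and 248 and 145 CPM (Il1a-/-). The 248 CPM of Il1a-/- replicate 1 rest on 6 UMIs in 17 cells. Ikzf2 (chromosome 1, bases 69531214 to 69687245, minus strand) had its highest levels in the same cells, at 1356 and 1141 CPM (WT) and 1448 and 739 CPM (Il1a-/-). Against other CD4 T cells, Foxp3 was higher by 2.07 (SE 0.22, adjusted p = 6.41e-07) and Ikzf2 by 1.81 (SE 0.17, adjusted p = 1.80e-07), both in 4 of 4 tumours, and Tcf7 was lower (-2.98, SE 0.31, adjusted p = 4.73e-07). These were the 3 called of 8 factors tested, against 5.55% of all genes (2.78% higher, 2.78% lower). Of 13 tested genes paired with Foxp3 and Helios in regulatory T cells, 7 were higher, led by the TNF receptor genes Tnfrsf9, Tnfrsf4 and Tnfrsf18 and by Lrrc32, which encodes the surface protein that holds latent TGF-beta, and 1 was lower, Nrp1. In the 2 CD4 gates together, 91.9% and 91.8% of the cells with a Foxp3 UMI in the WT tumours also had an Ikzf2 UMI, against 24.2% and 25.8% of the cells without one. In the Il1a-/- tumours these shares were 60% of 5 cells and 73.9% of 23 cells, against 15.7% and 12.6%. Median depth was 2934 and 4993 UMIs in the WT cells with Foxp3 against 2359 and 3374 in those without, and 1484 and 1901 against 1094 and 2444 in the Il1a-/- cells. Mononuclear phagocytes, with medians of 1695 to 4132 UMIs, had Ikzf2 in 0.606% to 5.82% of cells.

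Foxp3 was at 0 to 1.05 CPM in the 8 NK sums. Ikzf2 was not confined to Foxp3-bearing cells: the gamma-delta gate held 343 and 255 CPM (WT) and 525 and 346 CPM (Il1a-/-), while type 2 cytokine T cells held 7.04 to 46.7 CPM. Between the gamma-delta gate and CD8 T cells, 4 of 9 factors were called, against 4.9% of all genes (2.65% higher, 2.25% lower). Ikzf2 (1.79, SE 0.36, adjusted p = 0.0112) and Eomes were higher in the gate, and Irf4 (-1.94, SE 0.29, adjusted p = 0.00123) and Batf (-1.23, SE 0.28, adjusted p = 0.0222) were lower. The calls of Ikzf2 and Batf ended without Il1a-/- replicate 1 (adjusted p = 0.079 and 0.056) and without Il1a-/- replicate 2 (0.057 and 0.18). In the NK lineage, Ikzf2 was higher in cells with the ILC1 genes Itga1, Cd200r1 or Tnfsf10 than in those without (1.05, SE 0.18, adjusted p = 1.31e-05), in 4 of 4 tumours. It was the 1 factor called of 7 there, against 3.57% of all genes (1.95% higher, 1.62% lower). Eomes, which is used elsewhere to tell NK cells from ILC1, did not pass that test (-0.33, adjusted p = 0.12). Tbx21 did not pass it either (-0.05, adjusted p = 0.94).

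Tcf7 (chromosome 11, bases 52252371 to 52283014, minus strand) was highest in other CD4 T cells, at 307 and 191 CPM (WT) and 298 and 314 CPM (Il1a-/-). The gamma-delta gate, at 152 to 254 CPM, overlapped them. So did NK-lineage cells with ILC1 genes, at 86.2 to 285 CPM, and CD8 T cells, at 25.1 to 194 CPM. Type 2 cytokine T cells had 15.7 to 73.1 CPM. Irf4 (chromosome 13, bases 30749226 to 30766976, plus strand) and Batf (chromosome 12, bases 85686669 to 85709087, plus strand) encode partner proteins. Batf was highest in type 2 cytokine T cells, at 93.4 and 86.8 CPM (WT) and 271 and 218 CPM (Il1a-/-), except that Il2ra/Ctla4 CD4 T cells of WT replicate 2 reached 94.7 CPM. Irf4 was at 26.9 to 207 CPM in the CD4 and type 2 gates, which overlapped with 31.1 to 73.5 CPM in CD8 T cells. Irf4 was at 0 to 2.74 CPM in all 8 NK sums, whereas Batf was at 11.6 to 39.7 CPM there. Tox (chromosome 4, bases 6686353 to 6991557, minus strand) ranged in the WT tumours from 53.3 CPM in type 2 cytokine T cells to 129 CPM in Il2ra/Ctla4 CD4 T cells. Between CD8 and other CD4 T cells 5 of 9 factors were called, against 10.8% of all genes (5.41% higher, 5.42% lower): Eomes was higher in CD8 T cells, and Gata3 (-1.29, SE 0.18, adjusted p = 0.000368), Ikzf2 (-1.38, SE 0.19, adjusted p = 0.000322), Tcf7 (-1.57, SE 0.35, adjusted p = 0.00975) and Foxp3 (-1.15, SE 0.26, adjusted p = 0.0119) were lower. Without Il1a-/- replicate 2 the calls of Tcf7 and Foxp3 ended (adjusted p = 0.13 and 0.069), as did that of Tcf7 under DESeq2 (0.095) and that of Foxp3 with gates at 2 UMIs (0.39). Of 15 tested genes paired with T-bet and Eomes, 8 were higher in CD8 T cells, led by Ccl5, Gzmb, Nkg7 and Prf1, and 1 was lower, Klrg1. With no tumour block in the fit, calls between types that ended were those of Tox, Tbx21 and Batf in type 2 cytokine T cells, Ikzf2, Foxp3 and Tcf7 between CD8 and CD4 T cells, Ikzf2, Eomes and Batf in the gamma-delta gate, Ikzf2 in ILC1-gene cells, and Tcf7 and Tox in the CD8 T cell split described below.

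**Figure D1:**
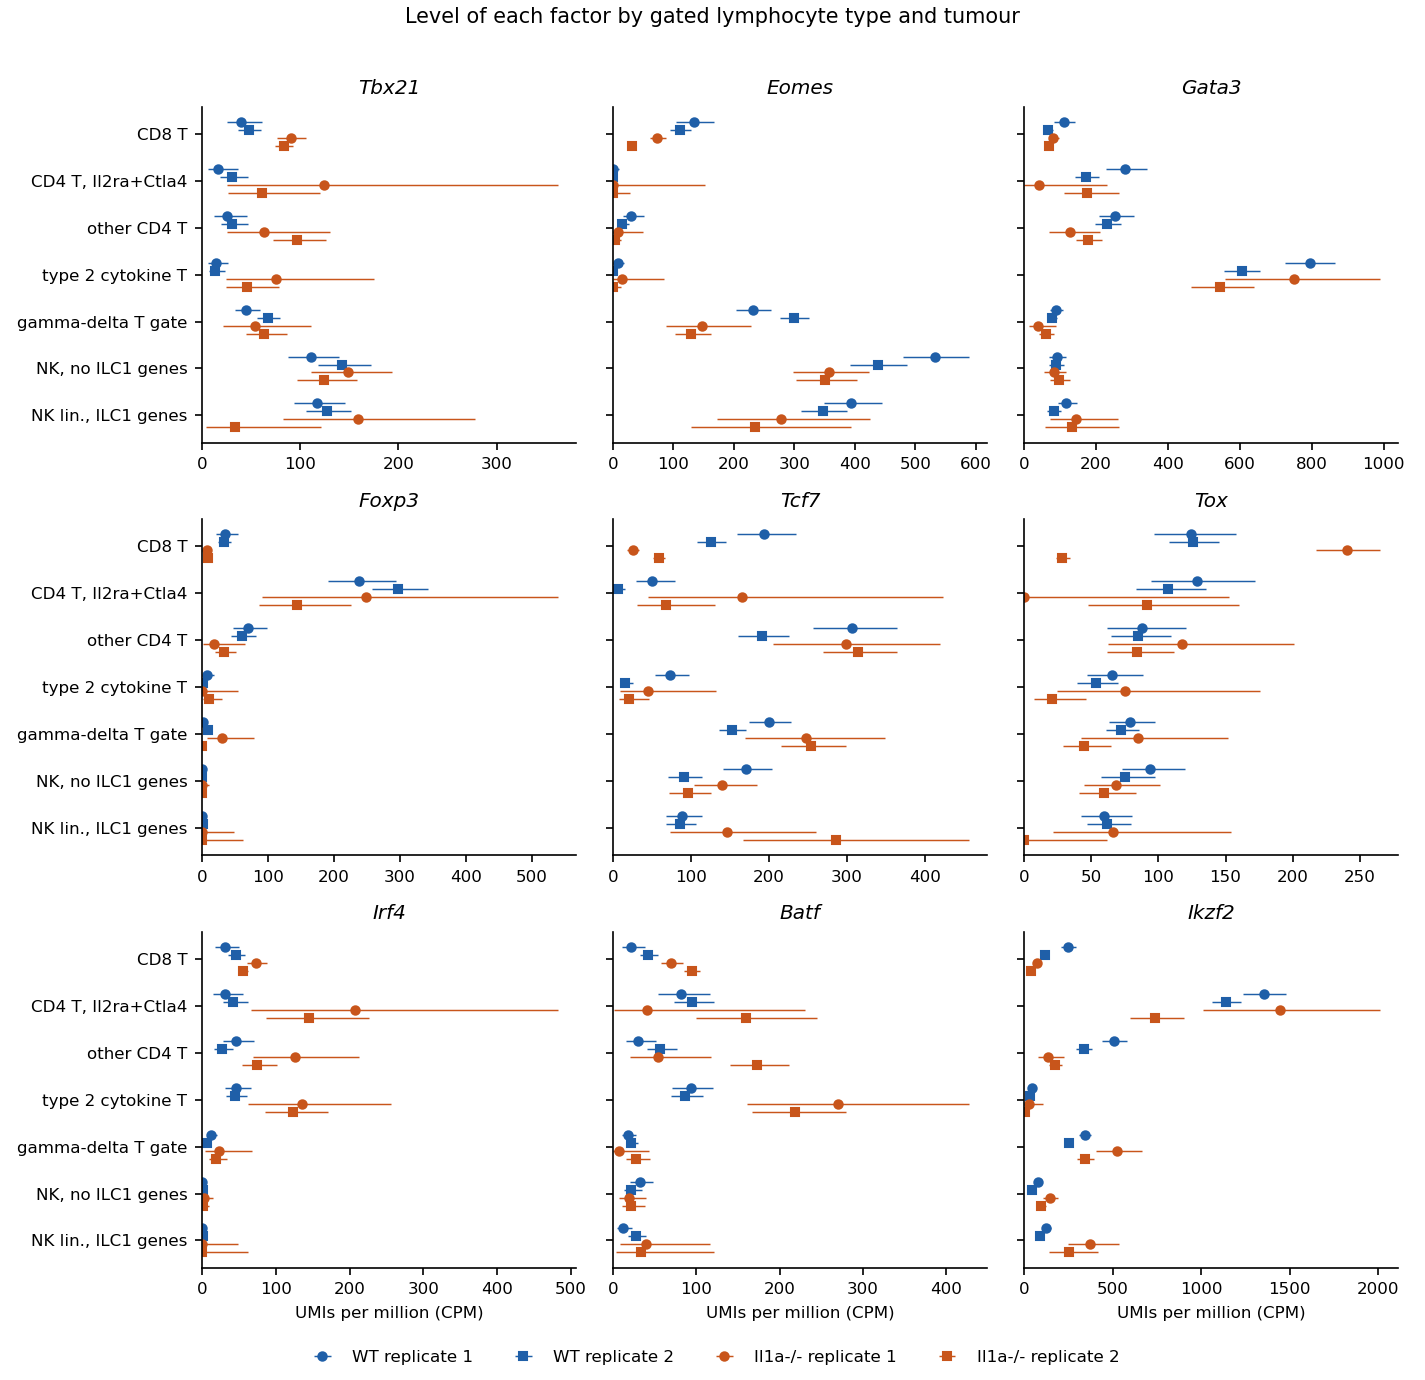
Level of each factor (x axis, CPM, linear) in 7 gated lymphocyte types (rows); blue points are the 2 WT tumours, orange points the 2 Il1a-/- tumours, and bars are 95% Poisson counting intervals, which do not hold the spread between animals. Gata3 stands apart in type 2 cytokine T cells and Foxp3 and Ikzf2 in CD4 T cells with Il2ra and Ctla4; Irf4 lies at or near 0 in both NK rows.

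**Figure D2:**
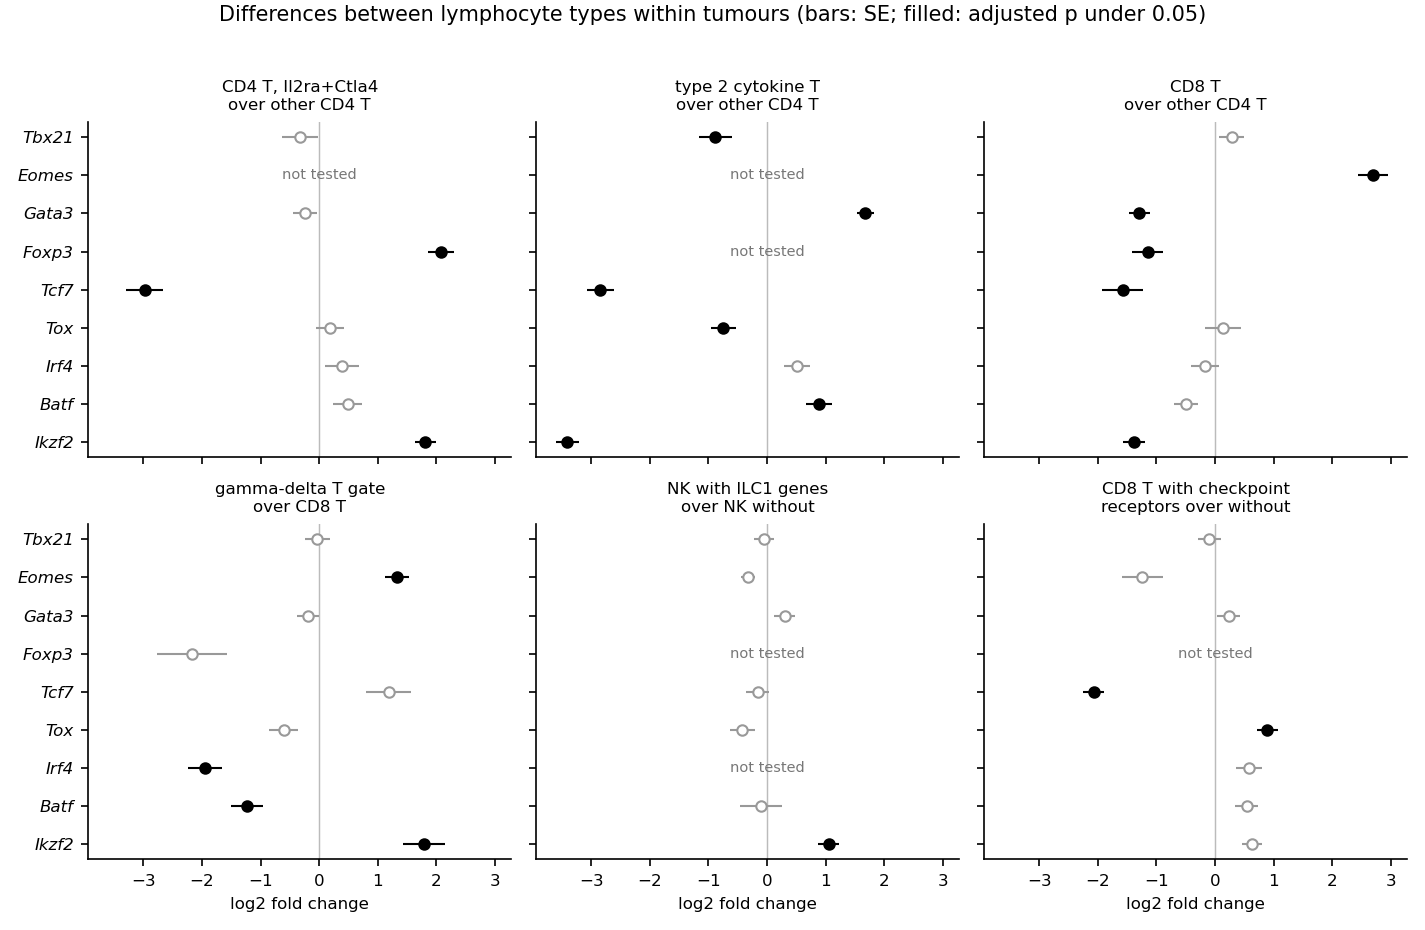
Log2 fold change of each factor between 6 pairs of lymphocyte types, fitted with the tumour as a block over 4 tumours (points; bars are SE; filled points have an adjusted p under 0.05; factors under the low-count filter are marked as not tested). Tcf7 has filled points to the left in 4 of the 6 panels, and Ikzf2 has filled points on both sides.

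Host genotype was compared first over all T/NK-like cells. Of the 9 factors 4 were called, against 5.01% of all genes (3.04% higher, 1.97% lower): Irf4 and Batf were higher and Foxp3 and Eomes lower in the Il1a-/- tumours. Irf4 was at 18.5 and 18.5 CPM (WT) and 56.9 and 51.7 CPM (Il1a-/-), a rise of 1.58 (SE 0.16, adjusted p = 0.00715). Batf was at 35.3 and 41.0 CPM (WT) and 58.5 and 87.9 CPM (Il1a-/-), a rise of 0.99 (SE 0.22, adjusted p = 0.0465). Neither gene's groups overlapped. Foxp3 was at 51.2 and 46.0 CPM (WT) and 16.1 and 24.6 CPM (Il1a-/-), a log2 change of -1.18 (SE 0.22, adjusted p = 0.0294). Eomes was at 247 and 218 CPM (WT) and 139 and 80.1 CPM (Il1a-/-), a change of -1.07 (SE 0.25, adjusted p = 0.0497), and RLE scaling gave an adjusted p of 0.0504. The other 5 factors did not pass: Ikzf2 at -0.90 (SE 0.21, adjusted p = 0.0502), Gata3 at -0.68 (SE 0.17), Tbx21 at 0.44 (SE 0.15), Tox at 0.22 (SE 0.48) and Tcf7 at -0.13 (SE 0.20). The groups of 7 factors did not overlap, 3 higher and 4 lower, as held for 57.6% of all genes (27.8% higher, 29.7% lower). None of the 4 calls held without WT replicate 2 (adjusted p = 0.069 for Irf4, 0.24 for Batf, 0.19 for Foxp3 and 0.25 for Eomes), and without WT replicate 1 those of Foxp3 (0.081), Batf (0.16) and Eomes (0.13) ended; without Il1a-/- replicate 2 that of Batf ended (0.065).

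The make-up of the T/NK-like cells differed between genotypes, and its part in the results over all of them was not tested. CD8 T cells made up 6.00% and 10.9% of T/NK-like cells in the WT tumours and 34.3% and 33.9% in the Il1a-/- tumours. CD4 T cells with Il2ra and Ctla4 made up 3.40% and 4.20% against 0.687% and 1.86%, and NK-lineage cells with ILC1 genes 7.33% and 7.46% against 1.86% and 0.676%. Both gates need UMIs of several genes in the same cell, so their shares can fall with depth, and they were not thinned. With 2 tumours against 2, an exact two-sided permutation test cannot go below p = 0.33, so the shares are given with no test. Cells with a Foxp3 UMI made up 8.92% and 9.54% of T/NK-like cells (WT) against 1.66% and 4.48% (Il1a-/-), and 4.90% and 3.68% against 1.06% and 2.82% when each cell was thinned to 1000 UMIs, which left out 80 and 74 (WT) and 780 and 136 (Il1a-/-) cells; in NK cells without ILC1 genes the share was 0 in all 4 tumours. Median depth was 2822 and 4038 (WT) and 1238 and 2676 (Il1a-/-) UMIs in T/NK-like cells and 2334 and 2878 (WT) and 1067 and 2186 (Il1a-/-) in those NK cells. Of 49 other lymphocyte transcription factors tested 6 rose, among them Nr4a2 and Nr4a3, early genes of receptor signalling, and Prdm1, which encodes Blimp-1, and 1 fell, Jun. Of 12 tested genes paired with Tox 5 rose and 1 fell: Entpd1 (1.38, SE 0.23), Pdcd1 (1.76, SE 0.30), Nr4a2 (1.19, SE 0.21), Havcr2 (3.23, SE 0.57) and Lag3 (2.08, SE 0.44) were higher and Cd160 was lower, while Tox itself did not pass. Pdcd1, Havcr2 and Lag3 encode checkpoint receptors, and Entpd1 an enzyme that breaks down extracellular ATP.

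In CD8 T cells Tcf7, Ikzf2 and Foxp3 were lower in the Il1a-/- tumours. These were 3 called of 9, against 2.02% of all genes (0.941% higher, 1.08% lower). Tcf7 was at 194 and 126 CPM (WT) and 25.1 and 58.5 CPM (Il1a-/-), a log2 change of -1.90 (SE 0.37, adjusted p = 0.0248). Cells with a Tcf7 UMI made up 44.9% and 35.3% of WT CD8 T cells and 4.25% and 17.1% of Il1a-/- CD8 T cells, or 18.7% and 13.2% against 2.95% and 6.35% after thinning to 1000 UMIs, which left out 2 and 1 (WT) and 102 and 15 (Il1a-/-) cells. Mononuclear phagocytes, which lack Tcf7, had 0% to 0.498% such cells and 0% to 0.554% after thinning; their median depth was 3835 and 4132 (WT) and 1695 and 3548 (Il1a-/-) UMIs, against 3233 and 4454 (WT) and 1650 and 3625 (Il1a-/-) in CD8 T cells. Ikzf2 was at 249 and 119 CPM (WT) and 74.6 and 41.1 CPM (Il1a-/-), a change of -1.71 (SE 0.37, adjusted p = 0.0368). Foxp3 was at 34.7 and 33.2 CPM (WT) and 7.76 and 8.73 CPM (Il1a-/-), a change of -2.05 (SE 0.35, adjusted p = 0.0125), from 5 and 17 WT cells with a UMI. Its groups did not overlap, nor did those of Tcf7 and Ikzf2. Batf at 1.22 (SE 0.32, adjusted p = 0.077), Eomes at -1.31 (SE 0.35, adjusted p = 0.090), Tbx21 at 0.90 (SE 0.25, adjusted p = 0.11) and Irf4 at 0.62 (SE 0.28) did not pass. On the normalized scale groups did not overlap for 7 factors, 3 higher and 4 lower, against 45.3% of all genes (22.4% higher, 22.9% lower). Tox was at 124 and 126 CPM (WT) and at 241 and 28.3 CPM (Il1a-/-), so the Il1a-/- tumours lay on either side of the WT tumours. Its change was 0.00 (SE 0.66).

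These 3 calls rested on few tumours. Without WT replicate 1 no factor was called in CD8 T cells (adjusted p = 0.42 for Tcf7, 0.49 for Ikzf2, 0.19 for Foxp3), nor without WT replicate 2 (0.30, 0.19 and 0.27), when 0 and 5 genes of all tested passed; without Il1a-/- replicate 2 the call of Ikzf2 ended (0.063). That of Ikzf2 also ended in cells with at least 1000 UMIs (0.072) and with gates at 2 UMIs (0.077). Among CD8 T cells with a Cd8b1 UMI, the beta chain of the co-receptor, Foxp3 was called (-2.31, adjusted p = 0.031) and Tcf7 was not (-1.85, adjusted p = 0.066), nor Ikzf2 (-1.54, adjusted p = 0.12). Of 12 tested genes paired with Tcf7, 6 were lower and none higher, with a median of -1.44 against -0.01 over all genes. They were led by the chemokine Xcl1 (-4.38, SE 0.54), Dapl1 (-5.39, SE 0.68), Klf2, which controls lymphocyte recirculation (-2.07, SE 0.33), and S1pr1, the receptor for egress from lymphoid tissue (-1.96, SE 0.39). Of 45 other lymphocyte factors 3 were higher, Bhlhe40, Nr4a2 and Id2, and 3 lower, Id3, Klf2 and Klf3.

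The CD8 T gate held different cells in the 2 genotypes. In the WT tumours 90 and 146 of its 136 and 258 cells lay in a cluster led by S1pr1, Tcf7 itself, Ccr7 and Lef1, against 64 and 62 of 848 and 802 in the Il1a-/- tumours. In the latter, 658 and 464 cells lay in a cluster led by Ccl5, Pdcd1, Lag3 and Gzmb, against 6 and 19 in the WT tumours. A cluster led by Foxp3 itself, Izumo1r and Tnfrsf4 held 6 and 13 WT gate cells (4.41% and 5.04%). It held 7 and 17 Il1a-/- gate cells (0.825% and 2.12%). Its part in the Foxp3 result of this gate was not tested. A cluster led by Il13, Ccl1 and Il1rl1 held 5.88% and 15.9% (WT) against 2.24% and 2.87% (Il1a-/-) of the gate. One led by the histone genes Hist1h2ap and Hist1h2ae held 10.3% and 8.91% against 11.4% and 26.2%. What these clusters add to the results of the gate was not tested. CD8 T cells with a UMI of Pdcd1, Havcr2 or Lag3, called checkpoint CD8 T cells here, made up 18.4% (95% exact interval 12.3 to 25.9) and 34.5% (28.7 to 40.6) of the gate in the WT tumours. In the Il1a-/- tumours they made up 76.1% (73.0 to 78.9) and 65.0% (61.5 to 68.3). After thinning to 1000 UMIs, which left out the cells counted above, the shares were 6.72% and 13.6% (WT) and 61.0% and 30.2% (Il1a-/-). Fibroblast-like cells, which should lack these receptors, had 1.93% and 4.93% (WT) and 2.11% and 9.36% (Il1a-/-) such cells, or 0.369% and 0.752% against 1.57% and 2.64% after thinning, at median depths of 3147 to 11504 UMIs. This split was chosen after the data were seen, and a cell can lack a checkpoint UMI through low depth.

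Between CD8 T cells with and without a checkpoint UMI, 2 of 8 factors were called, against 1.16% of all genes (0.715% higher, 0.441% lower). Tcf7 was lower in checkpoint CD8 T cells (-2.07, SE 0.18, adjusted p = 3.61e-06), and Tox was higher (0.89, SE 0.17, adjusted p = 0.0166). Eomes at -1.24 (SE 0.35, adjusted p = 0.11), Ikzf2 at 0.63 (SE 0.17, adjusted p = 0.10) and Batf at 0.54 (SE 0.20, adjusted p = 0.23) did not pass. The checkpoint sum of WT replicate 1 held 25 cells. The call of Tox ended without WT replicate 1 (adjusted p = 0.10), WT replicate 2 (0.12) or Il1a-/- replicate 2 (0.083) and with gates at 2 UMIs (0.15). Of 9 tested genes paired with Tcf7 3 were lower, Lef1 (-1.42, SE 0.22), Il7r, the receptor for interleukin 7 (-1.19, SE 0.19), and Klf2, and 1 was higher, Xcl1; the median was -0.47, against 0.00 over all genes. Of 7 tested genes paired with Tox 1 was higher, Rgs16 (1.80, SE 0.39).

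Within each kind, Tcf7 was lower in both Il1a-/- tumours than in either WT tumour, and neither difference was called. In CD8 T cells without a checkpoint UMI Tcf7 was at 225 and 201 CPM (WT) and 72.8 and 126 CPM (Il1a-/-), a log2 change of -1.14 (SE 0.27, adjusted p = 0.0503). In checkpoint CD8 T cells it was at 88.4 and 46.7 CPM (WT) and 13.4 and 30.7 CPM (Il1a-/-), a change of -1.29 (SE 0.48, adjusted p = 0.33). Both changes were smaller than the -1.90 of the whole gate. In CD8 T cells without a checkpoint UMI 146 of 6059 genes were called, among them 2 of 8 factors. These were Eomes, at 151 and 194 CPM (WT) and 57.6 and 49.9 CPM (Il1a-/-), a change of -1.87 (SE 0.27, adjusted p = 0.0081), and Ikzf2, at 192 and 98.5 CPM (WT) and 39.4 and 36.2 CPM (Il1a-/-), a change of -2.04 (SE 0.35, adjusted p = 0.013). The groups of both were apart, but the share of all genes with groups apart was not counted within the 2 kinds. In checkpoint CD8 T cells 50 of 7547 genes were called, and Foxp3 was the 1 factor of 9, at 56.3 and 58.0 CPM (WT) and 8.18 and 10.3 CPM (Il1a-/-), a change of -2.56 (SE 0.39, adjusted p = 0.0239). Its WT value in replicate 1 rests on 7 UMIs. There Eomes was at 72.4 and 24.0 CPM (WT) and 77.3 and 23.7 CPM (Il1a-/-), overlapping groups, and Ikzf2 at -2.02 (SE 0.50, adjusted p = 0.14) did not pass. Leaving out a tumour was not run within the 2 kinds. Among all CD8 T cells of the WT tumours, 23.0% and 16.5% of those with a Tcf7 UMI also had a Tox UMI, against 37.3% and 36.5% of those without. In the Il1a-/- tumours the shares were 33.33% and 12.4% against 34.4% and 12.0%.

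**Figure D3:**
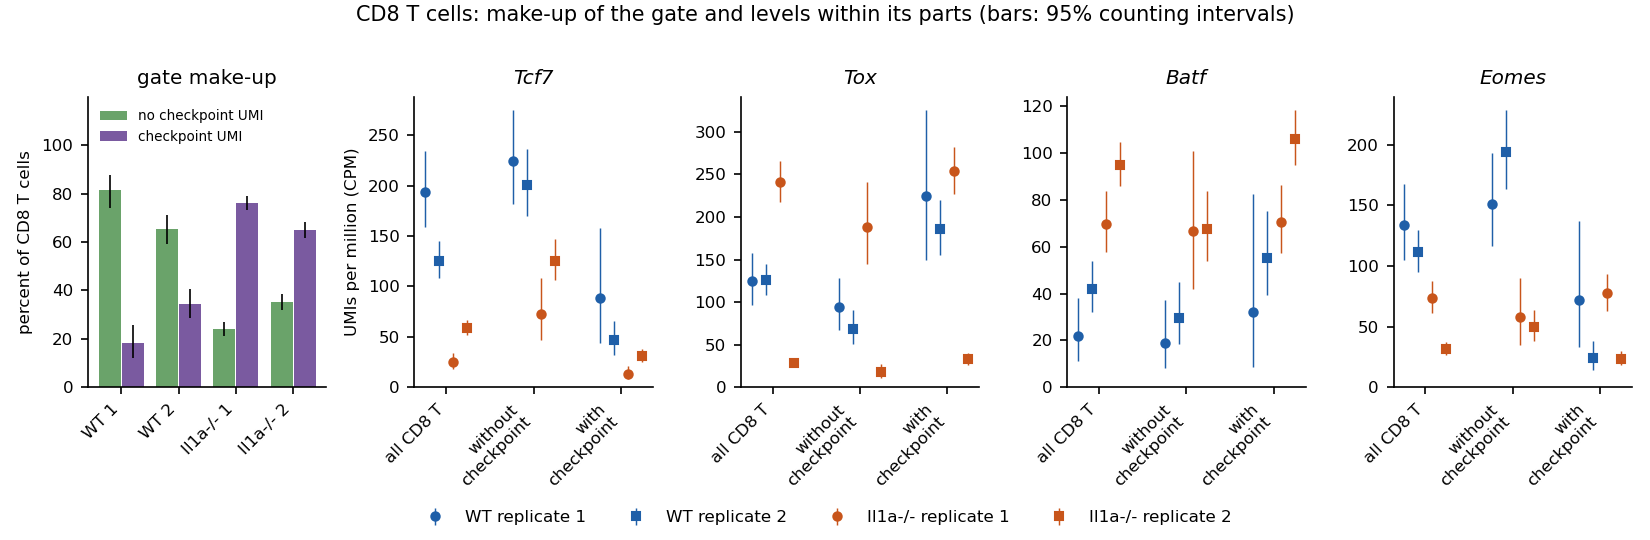
Left, percent of CD8 T cells in each tumour without (green) and with (purple) a checkpoint receptor UMI, with exact 95% binomial intervals; right, levels of Tcf7, Tox, Batf and Eomes (CPM) in all CD8 T cells and in either kind, with 95% Poisson counting intervals. Tcf7 lies lower in the Il1a-/- tumours in all 3 columns, and Eomes does so in cells without a checkpoint UMI, where WT values are 151 and 194 CPM, but not in those with one.

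Among the CD4 and type 2 cytokine gates, Irf4 was called higher in the Il1a-/- tumours in 2, Batf in 1 and Tbx21 in 1. Each of these factors had a positive change in the main fit of every one of these gates, called or not. The groups of Batf overlapped in CD4 T cells with Il2ra and Ctla4 and in other CD4 T cells. In the former its change ranged from -1.52 to 0.84 with 1 tumour left out. In type 2 cytokine T cells Irf4 was at 46.7 and 44.9 CPM (WT) and 135 and 123 CPM (Il1a-/-), a change of 1.49 (SE 0.34, adjusted p = 0.0222). Batf was at 93.4 and 86.8 CPM (WT) and 271 and 218 CPM (Il1a-/-), a change of 1.41 (SE 0.29, adjusted p = 0.0129). Both genes' groups were apart, and they were the 2 called of 7 factors tested, against 3.24% of all genes (2.82% higher, 0.414% lower). Groups were apart for 47.6% of all genes in this gate (22.4% higher, 25.2% lower). Gata3, the factor that directs type 2 cells, was at -0.13 (SE 0.25) with overlapping groups. Tbx21 was at 14.01 and 13.6 CPM (WT) and 75.2 and 45.8 CPM (Il1a-/-), 1.93 (SE 0.52, adjusted p = 0.055), which did not pass. Both calls ended without Il1a-/- replicate 2 (adjusted p = 0.31 for Irf4 and 0.14 for Batf), and DESeq2 did not call Irf4 (0.18). Of 14 tested genes paired with Irf4 and Batf 7 were higher and none lower, among them Tnfrsf9 (2.11, SE 0.31), Gzmb (3.49, SE 0.54), Ctla4 (1.54, SE 0.24) and Il2ra (1.40, SE 0.27). Their median was 1.11, against -0.03 over all genes. Of 43 other lymphocyte factors 9 were higher and none lower, led by Rel, Irf1, Nr4a3, Satb1 and Nfil3.

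In CD4 T cells with Il2ra and Ctla4, Irf4 was at 30.9 and 42.8 CPM (WT) and 207 and 145 CPM (Il1a-/-), a change of 1.99 (SE 0.47, adjusted p = 0.00963). It was the 1 factor called of 8, against 4.25% of all genes (2.51% higher, 1.74% lower). The 207 CPM rest on 5 UMIs in the 17 cells of Il1a-/- replicate 1. The make-up of this gate differed between genotypes: the cluster led by Foxp3, Izumo1r and Tnfrsf4 held 79.2% and 66.7% (WT) against 52.9% and 40.9% (Il1a-/-) of its cells. A cluster led by Il13, Ccl1 and Il1rl1 held 15.6% and 13.1% against 23.5% and 47.7%, and the CD8 cluster led by Ccl5 held 0 WT cells against 4 and 3 Il1a-/- cells. The call ended without WT replicate 1 (adjusted p = 0.067), WT replicate 2 (0.11) or Il1a-/- replicate 2 (0.29), and held without Il1a-/- replicate 1. Foxp3 (-0.73, SE 0.38, adjusted p = 0.30) and Ikzf2 (-0.39, SE 0.30, adjusted p = 0.52) did not pass. Nor did Tbx21 (1.47, adjusted p = 0.17) or Batf (0.59, adjusted p = 0.50). When T cells with a Foxp3 UMI (188 and 192 WT cells, 26 and 69 Il1a-/- cells) took the place of this gate, Irf4 was called again (2.22, adjusted p = 0.0081). Ikzf2 in those cells was at 1948 and 1318 CPM (WT) and 2066 and 1765 CPM (Il1a-/-), overlapping groups.

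In other CD4 T cells 2 of 8 factors were called, against 1.65% of all genes (1.29% higher, 0.354% lower). Tbx21 was at 25.4 and 31.1 CPM (WT) and 63.3 and 96.7 CPM (Il1a-/-), a change of 1.57 (SE 0.36, adjusted p = 0.0383). Ikzf2 was at 507 and 337 CPM (WT) and 136 and 175 CPM (Il1a-/-), a change of -1.40 (SE 0.28, adjusted p = 0.0201). The groups of both were apart, as held for 44.3% of all genes (21.6% higher, 22.7% lower). This gate's make-up differed too. The cluster led by Foxp3 held 20.6% and 22.2% of its WT cells against 5.56% and 10.0% of its Il1a-/- cells, the one led by Il13 25.7% and 25.4% against 23.3% and 49.0%, and the CD8 cluster led by Ccl5, Cd8b1 and Gzmb held 0 WT cells against 15 and 15 Il1a-/- cells (16.7% and 7.14%). The part of these clusters in the results was not tested beyond leaving out cells with a Foxp3 UMI. Part of the Ikzf2 came from such cells: without them it was at 285 and 153 CPM (WT) and 132 and 67.2 CPM (Il1a-/-), and the change of -1.36 was not called (adjusted p = 0.11), while Tbx21 was (1.64, adjusted p = 0.0487). Without Il1a-/- replicate 2 neither was called (adjusted p = 0.62 for Tbx21 and 0.45 for Ikzf2), and without Il1a-/- replicate 1 Ikzf2 was not (0.20). Neither was called in cells with at least 1000 UMIs (0.073 and 0.056). Batf (1.57, SE 0.40, adjusted p = 0.063), Irf4 (1.31, SE 0.38, adjusted p = 0.12), Foxp3 (-1.14, SE 0.39, adjusted p = 0.18) and Tcf7 (0.29, SE 0.27, adjusted p = 0.70) did not pass. Of 13 tested genes paired with T-bet and Eomes 5 were higher, led by the chemokine Ccl4 (2.04, SE 0.29), Gzmb (2.84, SE 0.41) and Ccl5 (2.07, SE 0.30), and 1 was lower, the chemokine Xcl1 (-4.23, SE 0.80).

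In the gamma-delta gate Eomes was the 1 factor called of 8, against 5.56% of all genes (3.75% higher, 1.81% lower). Its levels, given above, did not overlap between genotypes, as held for 51.0% of all genes (23.0% higher, 28.0% lower). The change was -1.02 (SE 0.23, adjusted p = 0.00772). Among cells of the gate without Ncr1 or Klrb1c UMIs Eomes was at 126 and 225 CPM (WT) and 117 and 85.1 CPM (Il1a-/-), and the change of -0.94 (SE 0.33) was not called (adjusted p = 0.080). It was also lost without WT replicate 2 (adjusted p = 0.27) and without Il1a-/- replicate 2 (0.14), and under DESeq2 (0.094). Ikzf2 was at 0.44 in the whole gate and at -0.03 without the cells bearing NK genes, and Tcf7 at 0.50 (SE 0.22, adjusted p = 0.19) and 0.57 (SE 0.28, adjusted p = 0.26); neither passed. Of 46 other lymphocyte factors tested in the whole gate 16 were higher in the Il1a-/- tumours and none lower, led by Rora (2.64, SE 0.25), Satb1 (1.46, SE 0.19), Nr4a3 (1.63, SE 0.22), Irf1 (1.13, SE 0.21) and Nr4a2 (1.13, SE 0.22), with a median of 0.65 against -0.05 over all genes.

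In the NK lineage Ikzf2 was higher in the Il1a-/- tumours. In NK cells without ILC1 genes it was at 76.7 and 47.2 CPM (WT) and 145 and 93.9 CPM (Il1a-/-), a change of 0.92 (SE 0.26, adjusted p = 0.0277). In cells with ILC1 genes it was at 123 and 90.4 CPM (WT) and 371 and 252 CPM (Il1a-/-), a change of 1.48 (SE 0.31, adjusted p = 0.00512), although the Il1a-/- sums held 46 and 16 cells. In each it was the 1 factor called of 7, against 5.3% of all genes in the first gate (3.28% higher, 2.01% lower) and 1.8% in the second (1.36% higher, 0.44% lower). Its groups did not overlap, as held for 48.6% of all genes in the first gate (24.5% higher, 24.1% lower). In the second gate this held for 49.2% (21.8% higher, 27.4% lower). The first call ended without Il1a-/- replicate 1 (adjusted p = 0.40) and without WT replicate 2 (0.29), the second without Il1a-/- replicate 1 (0.26) and without WT replicate 2 (0.11). The first was also not called in cells with at least 1000 UMIs (0.094), with gates at 2 UMIs (0.16) or by DESeq2 (0.25). Eomes was -0.46 (SE 0.19, adjusted p = 0.16) and -0.62 (SE 0.29, adjusted p = 0.33) in the 2 gates, and Tcf7 1.16 (SE 0.36, adjusted p = 0.095) in the second. The cluster led by Xcl1, Ncr1 and Klrb1f held 91 and 85 (WT) against 17 and 0 (Il1a-/-) of the first gate's cells and 93 and 104 against 3 and 0 of the second's; its part in the result was not tested. Of 42 other lymphocyte factors tested in the first gate 15 were higher, led by Rora (1.91, SE 0.22), Nr4a3 (1.36, SE 0.21), Nr4a2 (1.04, SE 0.20) and Irf1 (0.97, SE 0.21), and 1 was lower, the AP-1 gene Jun.

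**Figure D4:**
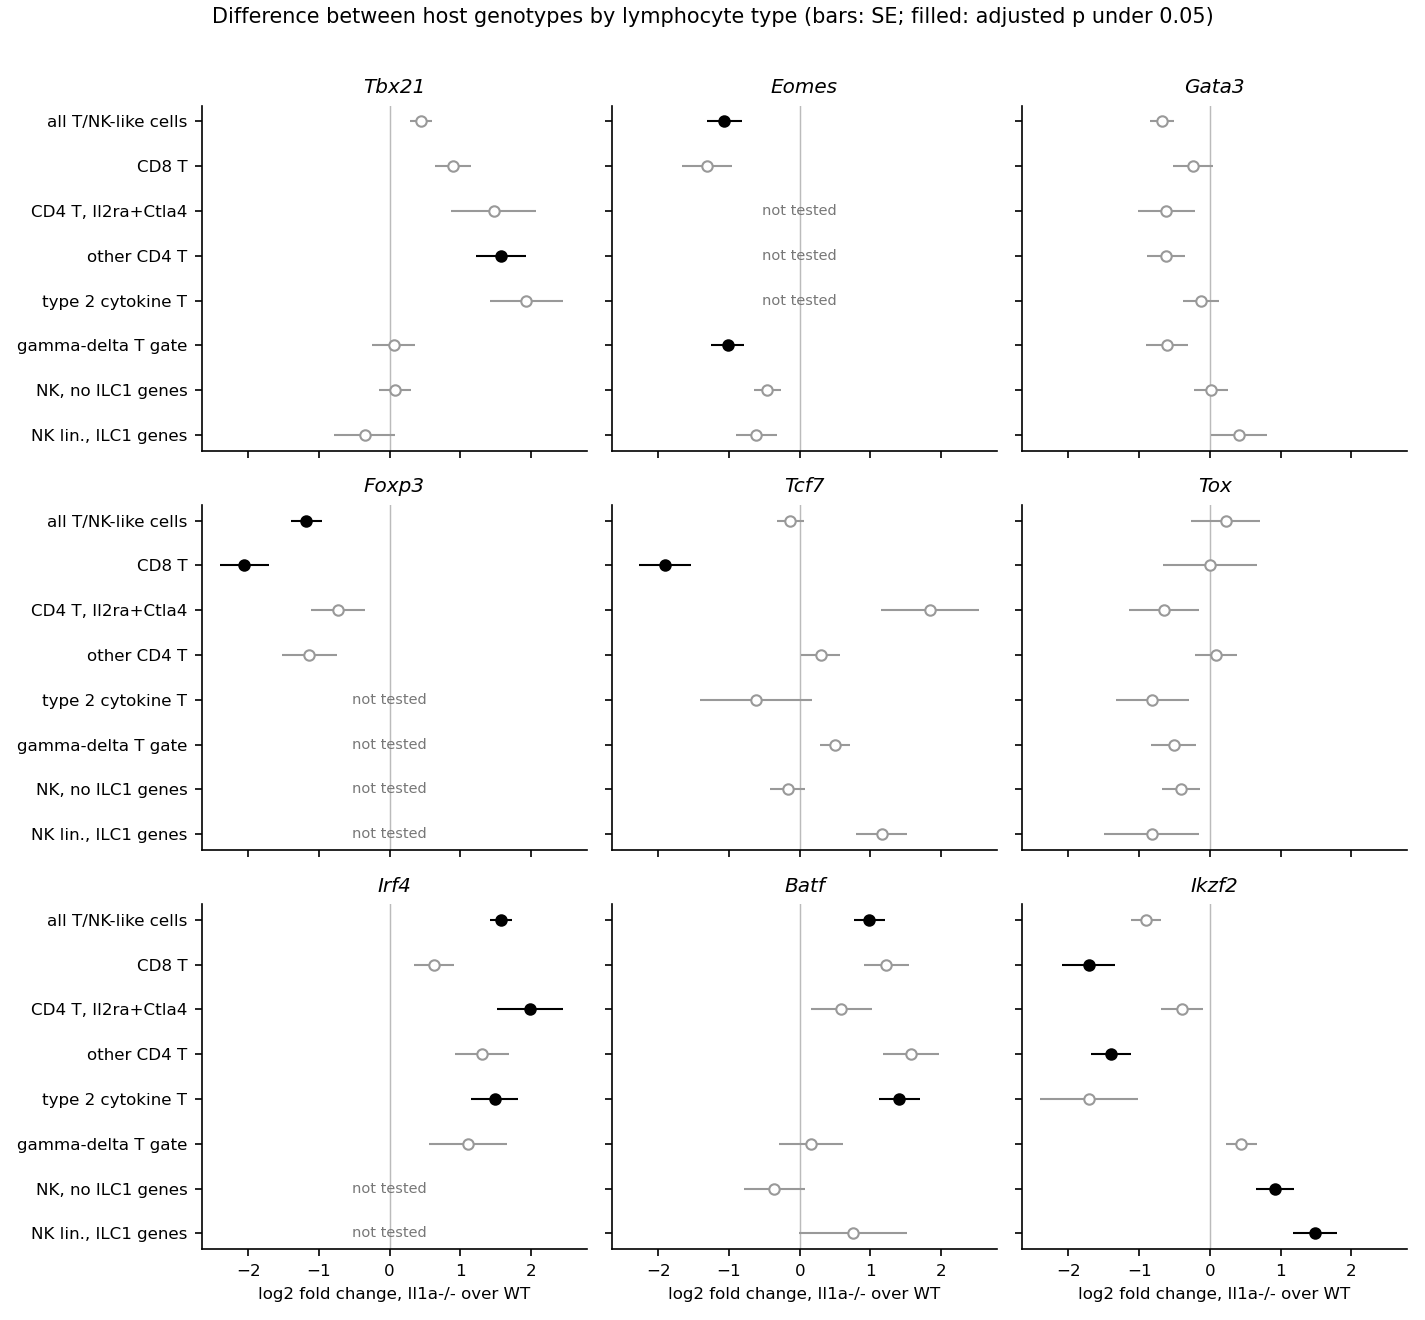
Log2 fold change of each factor, Il1a-/- over WT, in all T/NK-like cells and 7 gated types (points; bars are SE, 2 tumours a group; filled points have an adjusted p under 0.05). Irf4 has filled points to the right in 3 rows, and Ikzf2 has filled points to the left in CD8 and other CD4 T cells and to the right in both NK rows.

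Differences between genotype effects were tested for 3 pairs of types. Tcf7 changed more negatively in CD8 T than in other CD4 T cells, by -2.15 on the log2 scale (SE 0.31, adjusted p = 0.00114), as the 1 factor called of 9, against 0.392% of all genes (0.182% higher, 0.21% lower). That call ended without Il1a-/- replicate 1 (adjusted p = 0.066). Between the gamma-delta gate and CD8 T cells the effects of Tcf7 (2.29, SE 0.28, adjusted p = 1.27e-05) and Ikzf2 (2.19, SE 0.25, adjusted p = 2.97e-06) differed, 2 of 9 factors against 2.41% of all genes (1.26% higher, 1.15% lower). Without the gamma-delta gate cells bearing NK genes both differences were called again (2.39, SE 0.30, adjusted p = 0.000259 for Tcf7 and 1.68, SE 0.31, adjusted p = 0.0103 for Ikzf2), while the genes called in all fell from 210 to 58. Of 11 tested genes paired with Tcf7, 6 also had higher effects in the gamma-delta gate, led by Il7r, Klf2, Xcl1 and Bach2. Between NK-lineage cells with and without ILC1 genes none of 7 factors was called by edgeR, 1 had an unadjusted p under 0.05, and 0.0411% of all genes were called. The pairs share their tumours, and these contrasts carry the shifts in gate make-up described above.

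Likeness of pattern was measured over 20 sums (5 types in 4 tumours) as the Pearson correlation of log2(CPM + 10), against 8568 genes. The sums share tumours and depth, so these values are descriptions. CD4 T cells with Il2ra and Ctla4, where Foxp3 and Ikzf2 were highest, and NK-lineage cells with ILC1 genes were left out. Each had fewer than 20 cells in at least 1 tumour, so the values do not cover them. Tbx21 was most like Fasl (r = 0.92), AW112010 (0.90) and Il2rb, a chain of the interleukin 2 and 15 receptors (0.86). Eomes was most like Cd244 (0.96), which encodes an NK receptor, Samd3 and Car2 (both 0.94). Gata3 was most like Pparg (0.96), Arl5a and Il9r (both 0.95). Irf4 was most like Bcl2a1b (0.97) and Batf like Synj2 (0.93), and the 2 correlated with each other at 0.76. Tcf7 and Ikzf2 ranked among each other's nearest genes at 0.84. Foxp3 was most like Il6ra (0.85). Tox was most like Wdr61 (0.69), the lowest value for a nearest gene among the 9 factors.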

How the data were processed

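Droplet libraries (10x 3' v3.1) of 4 tumours were processed by the authors with Cell Ranger 3.1.0 and build mm10, per the submitters' processing notes; the deposited matrices hold UMI counts, not normalized, for 64591 features with human or mouse prefixes and for every barcode. The steps here started from those counts. Cells had at least 500 UMIs and 250 genes, at most 20% mitochondrial UMIs and a test against free RNA at an adjusted p of 0.001; doublets were scored and removed at 0.8% per 1000 cells. Mouse counts without the 9 factors were clustered (scanpy 1.11.5, 2000 variable genes, 30 components, Leiden resolution 1). Classes needed at least 3 markers, by a naming rule set after the clusters were seen. T/NK-like cells were gated at 1 UMI of marker genes, and counts summed per tumour and gate with at least 20 cells, a minimum lowered to 10 after the data were seen because 2 gates held 16 or 17 cells in 1 tumour. edgeR 4.0.16 (R 4.3.3) used its default low-count filter and TMM scaling. A split of CD8 T cells by Pdcd1, Havcr2 or Lag3 alone took the place of the planned one, which is not reported here. Contrasts of types had the tumour as a block, and those of genotype no block.

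The factors and all gene lists were chosen with earlier results of these data known. In each list at most 4 genes (5 among other transcription factors) were named in order of p among those called; Lag3, Cd160, Nrp1, Klrg1 and Id2 complete a small count and were named after their values were seen. On simulated counts with a log2 change of 1.5, 70.4% of changed genes were called for T/NK-like cells (10923 genes), 54.2% for CD8 T cells (8260), 45.7% for other CD4 T cells (5310), 43.3% for type 2 cytokine T cells (4929), 57.8% for NK cells without ILC1 genes (6266) and 27.7% for the gamma-delta gate (6913). Of the calls, 1.85% to 6.31% were false. The counts were drawn with a single fixed dispersion that was not estimated from these tumours. These shares therefore do not give the power or error of the fits to the tumours. Alternatives were RLE scaling, no low-count filter, cells with at least 1000 UMIs, gates at 2 UMIs, DESeq2 1.42.0, the replicate block, the subsets named in the text and each tumour left out. Counting intervals (exact Poisson or binomial, 95%) cover counting error only.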

Additional observations from a re-analysis of the deposited data

Results flagged for a closer look

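The genotype effect on Tcf7 differed between CD8 T cells and other CD4 T cells by -2.15 on the log2 scale, by the test of the difference itself. Tcf7 and Ikzf2 had genotype effects that differed between the gamma-delta gate and CD8 T cells, by 2.29 and 2.19. In each of the 3 cases the effect in CD8 T cells was the more negative one. UMIs on human features, which no comparison used, made up 0.00589% and 0.00522% of the UMIs in the WT libraries and 0.00759% and 0.00678% in the Il1a-/- libraries.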

How the results depend on the processing

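Over all 136 fits of a factor in a comparison, 39 were called. All 39 had the same sign under every alternative run, and 11 were called under every one. None of these 11 was a host genotype change within a single population. They were contrasts between types and differences between genotype effects. Of the 97 that were not called, 40 changed sign under at least 1 alternative and 19 were called under at least 1. Single values are given below for the results whose fold changes the text prints. With 2 tumours a group, leaving out 1 leaves a lone sample that is assumed to vary like the others. Sums of 16 or 17 cells rest on few UMIs for each factor.

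Genes called between genotypes changed by over 1.5 times as follows. Over T/NK-like cells 555 became 1761 without the low-count filter, and 23 to 1053 with 1 tumour left out (lowest without WT replicate 2). In CD8 T cells 172 became 515 without the filter, 67 with Cd8b1, 50 with checkpoint receptors, and 0 to 366 with 1 tumour left out (0 without WT replicate 1). In CD4 T cells with Il2ra and Ctla4, 171 became 111 under RLE, 87 without the filter, 22 under DESeq2, 33 in T cells with a Foxp3 UMI, and 30 to 233 (lowest without WT replicate 2). In type 2 cytokine T cells 172 became 103 under DESeq2, and 40 to 270. In other CD4 T cells 93 became 154 without the filter, 38 at 1000 UMIs, 34 under DESeq2, and 2 to 310 (both lowest without Il1a-/- replicate 2). In the gamma-delta gate 405 became 129 under DESeq2, 203 without Ncr1 or Klrb1c, and 159 to 461 (lowest without WT replicate 2). In NK cells without ILC1 genes 347 became 162 at 1000 UMIs, 100 at gates of 2 UMIs, 92 under DESeq2, and 206 to 454 (lowest without Il1a-/- replicate 2). With ILC1 genes 94 became 39 under DESeq2, and 14 to 107 (lowest without WT replicate 2).

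The number of factors called moved likewise. It went from 4 to between 0 and 6 over T/NK-like cells with 1 tumour left out. In CD8 T cells 3 became 6 without the filter, 1 with Cd8b1, 1 with checkpoint receptors, and 0 to 6 with 1 tumour left out. In CD4 T cells with Il2ra and Ctla4, 1 became 2 at 1000 UMIs, 0 under DESeq2 (which gave Irf4 no adjusted p), and 0 to 1. In type 2 cytokine T cells 2 became 1 under DESeq2, and 0 to 2. In other CD4 T cells 2 became 0 at 1000 UMIs, 1 under DESeq2, 1 without Foxp3 cells, and 0 to 4. In the gamma-delta gate 1 became 0 under DESeq2, 0 without Ncr1 or Klrb1c, and 0 to 1. In NK cells without ILC1 genes 1 became 0 at 1000 UMIs, at gates of 2 UMIs and under DESeq2, and 0 to 1 with 1 tumour left out; with ILC1 genes the range was 0 to 1.

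Between types, the genes called with Il2ra and Ctla4 against other CD4 T cells went from 276 to 95 under DESeq2, 24 with no tumour block and 54 to 393 with 1 tumour left out, and the same 3 factors were called each time. For type 2 cytokine against other CD4 T cells 812 became 413 at gates of 2 UMIs, 389 under DESeq2, 186 with no block and 416 to 801, with 6 factors becoming 3 with no block and 3 to 7. For CD8 against other CD4 T cells 675 became 324 at gates of 2 UMIs, 367 under DESeq2, 151 with no block and 294 to 607, with 5 factors becoming 2 with no block and 3 to 5. For the gamma-delta gate against CD8 T cells 390 became 920 without the filter, 193 with no block and 204 to 331, with 4 factors becoming 7 without the filter and 1 with no block. With against without ILC1 genes 227 became 63 under DESeq2, 42 with no block and 67 to 310, and 1 factor became 0 with no block. For CD8 T cells with against without checkpoint receptors 76 became 284 without the filter, 25 at gates of 2 UMIs, 45 under DESeq2, 5 with no block and 29 (without WT replicate 1) to 78, with 2 factors becoming 5 without the filter, 0 with no block and 1 to 3. For the differences between genotype effects, CD8 minus other CD4 T cells went from 28 to 65 without the filter, 14 at 1000 UMIs and 1 to 48, with 0 to 1 factors; the NK pair went from 3 to 5 at gates of 2 UMIs and 0 to 11; and gamma-delta minus CD8 went from 210 to 58 without Ncr1 or Klrb1c and 91 to 355.

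Per the labels the tumours were collected as 2 WT and Il1a-/- pairs on separate days, but no label ties the replicate numbers 1 and 2 to a day. The fits between genotypes without a block therefore do not account for the day. The deviations of same-numbered tumours correlated at -0.000534 to 0.19 over the 8 populations, and same numbers were not treated as pairs. A replicate block moved the genes called from 555 to 2188 over T/NK-like cells (7 factors), 172 to 309 in type 2 cytokine T cells (3 factors, with Tbx21 added), 93 to 328 in other CD4 T cells (4 factors), 405 to 731 in the gamma-delta gate, 347 to 650 in NK cells without ILC1 genes and 94 to 34 in those with them. It moved them from 172 to 116 in CD8 T cells, of which 107 were shared, and the factors from 3 to 2: the call of Tcf7 ended (-1.95, adjusted p = 0.073). In CD4 T cells with Il2ra and Ctla4 it moved them from 171 to 167 and gave 2 factors, with Tcf7 added. In the gamma-delta gate and both NK gates the 1 factor called was called again.

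Among the fold changes that the text prints, uncalled ones changed sign in these cases, and the cause was not tested. Tox over T/NK-like cells was -0.030 with the block and -0.99 to 0.91 with 1 tumour left out, and Tcf7 there was -0.35 to 0.13. Tox in CD8 T cells was -0.0041 at 1000 UMIs, -0.67 with the block, -0.12 with Cd8b1, -0.15 without and -0.49 with checkpoint receptors and -2.16 (without Il1a-/- replicate 1) to 0.89 (without Il1a-/- replicate 2). Eomes was 0.47 in checkpoint CD8 T cells. In T cells with a Foxp3 UMI, a choice that fixes Foxp3 itself, Ikzf2 was 0.15 and Foxp3 0.63. Gata3 in type 2 cytokine T cells was -0.32 to 0.025. Tcf7 in other CD4 T cells was -0.037 at gates of 2 UMIs and -0.0044 to 0.65. Ikzf2 in the gamma-delta gate was -0.028 without Ncr1 or Klrb1c. Batf in CD4 T cells with Il2ra and Ctla4 was -1.52 to 0.84 with 1 tumour left out. Tbx21 in NK-lineage cells with against without ILC1 genes was -0.19 to 0.017 with 1 tumour left out. Gates at 2 UMIs were not run for CD4 T cells with Il2ra and Ctla4, which then held as few as 4 cells.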

Other observations

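Several of the 9 factors were also measured outside the T/NK-like cells. Gata3, which luminal mammary epithelium expresses too, stood at 145 and 113 CPM in tumour epithelial-like cells of the WT tumours and at 134 CPM in those of Il1a-/- replicate 1; Il1a-/- replicate 2 held 1 such cell. Irf4 stood at 77.6 and 43.1 CPM (WT) and 22.3 and 18.0 CPM (Il1a-/-) in conventional dendritic-like cells, and at 42.8 and 34.5 CPM (WT) and 105 and 39.7 CPM (Il1a-/-) in plasmacytoid dendritic-like cells. The 22.3 CPM rest on 2 UMIs. Batf was at 89.7 and 132 CPM in the 33 and 65 neutrophil-like cells of the WT tumours, and at 0 in fibroblast-like cells of all 4 tumours. Ikzf2 was at 60.8 to 93.8 CPM in plasmacytoid and at 54.0 to 112 CPM in conventional dendritic-like cells, against 2.89 to 13.5 CPM in mononuclear phagocytes.

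T cells without a UMI of either co-receptor, 495 to 617 per tumour, carried Foxp3 at 146 and 97.5 CPM (WT) and 47.0 and 77.0 CPM (Il1a-/-). These cells entered no contrast between types.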
